A study of Mus musculus with 2 samples.

Results

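The miR-26 family was described here in mouse hippocampus. It has 3 genes, Mir26a-1, Mir26a-2 and Mir26b, each inside a gene of the Ctdsp phosphatase family, out of 2202 genes measured as microRNA genes. Some of the 2202, such as Snord43, carry names of other small RNAs. The 3 miR-26 genes were chosen by name with their earlier values known, among them the high level of Mir26a-2 in a single library. Their levels and their difference between libraries are therefore given as descriptions with no test. MicroRNA libraries, labelled with a size range below 30 nt, were made from total RNA of tissue labelled as layer of hippocampus. The label does not say which layer. The mice were B6CASTF1/J males, from a cross of the strains C57BL/6J and CAST/EiJ, at 10 days of age. There was 1 group, with no treatment named in its labels, and it held 2 biological replicates, each labelled with 3 males. The animal numbers differ between the replicates while the donor identifier is shared, so the spread between them may be partly technical. The animals of a replicate were not measured singly.

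MicroRNAs are cut from hairpin transcripts into mature strands of the 5′ arm (5p) and the 3′ arm (3p), and a strand pairs with target transcripts mainly through its seed, bases 2 to 8. The miR-26 microRNAs are conserved among vertebrates and lie in introns of genes for small C-terminal domain phosphatases. These enzymes remove phosphate from RNA polymerase II and from other proteins, and they act with the repressor REST to keep neuronal genes silent outside neurons. In zebrafish, miR-26b represses its own host gene ctdsp2 as neurons form. The best known target of miR-26a in mammals is Ezh2, a histone methyltransferase that silences developmental genes.

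The mature sequences are shown first because they decide which reads can be told apart. They are RefSeq annotations on GRCm38.p6, 5′ to 3′, with the seed in capitals, and all 3 genes were found in that table.
miR-26a-5p, from both Mir26a-1 and Mir26a-2: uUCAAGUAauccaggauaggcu
miR-26b-5p, from Mir26b: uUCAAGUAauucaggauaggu
miR-26a-1-3p, from Mir26a-1: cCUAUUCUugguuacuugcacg
miR-26a-2-3p, from Mir26a-2: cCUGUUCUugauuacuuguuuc
miR-26b-3p, from Mir26b: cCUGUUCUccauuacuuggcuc

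On the 5′ arm all 3 genes have the same seed, UCAAGUA, and no other gene in the table has it. Over the 21 bases that both strands have, miR-26b-5p differs from miR-26a-5p by C11U and C21U, with the miR-26a base first and positions counted from 1 at the 5′ end. On the 3′ arm the genes pair differently. The seed CUGUUCU is shared by miR-26a-2-3p and miR-26b-3p, while miR-26a-1-3p differs from miR-26a-2-3p by A4G, inside the seed, and at 5 positions outside it among 6 in all. The strands miR-26a-2-3p and miR-26b-3p differ by U9C, G10C, U19G and U20C. Outside the family, CUGUUCU is also the 3p seed of Mir6932, which had 1 count in replicate 2 and 0 in replicate 1, and of Mir7039, which had 4 counts in replicate 2 and 10 in replicate 1. Both were picked with their values in view.

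The annotated hairpins of GENCODE M21, on mm10, follow with the 5p and then the 3p mature strand in capitals. Each is on the plus strand.
Mir26b, chr1:74394310-74394394: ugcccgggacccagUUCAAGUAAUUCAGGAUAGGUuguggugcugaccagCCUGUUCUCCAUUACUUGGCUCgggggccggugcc
Mir26a-2, chr10:126995530-126995613: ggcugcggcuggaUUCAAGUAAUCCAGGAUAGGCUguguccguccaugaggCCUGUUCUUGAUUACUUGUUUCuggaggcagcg
Mir26a-1, chr9:119031796-119031885: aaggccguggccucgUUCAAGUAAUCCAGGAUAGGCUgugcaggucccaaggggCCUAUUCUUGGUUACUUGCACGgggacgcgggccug

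The longest run that Mir26a-2 and Mir26a-1 share is 25 bases. It covers the whole miR-26a-5p strand and the 3 bases after it, at positions 14 to 38 of the Mir26a-2 hairpin and 16 to 40 of the Mir26a-1 hairpin. A read lying within this run fits both genes without a mismatch. Mir26b shares runs of no more than 11 bases with Mir26a-1 and 10 bases with Mir26a-2. Aligned over their full length, Mir26a-2 and Mir26a-1 are 72.5% identical, Mir26b and Mir26a-1 68.5%, and Mir26b and Mir26a-2 66.3%. In a search of the 2202 hairpins, miR-26a-5p was found in 2 of them, and each of the other 4 mature sequences was found in 1.

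**Figure D1:**
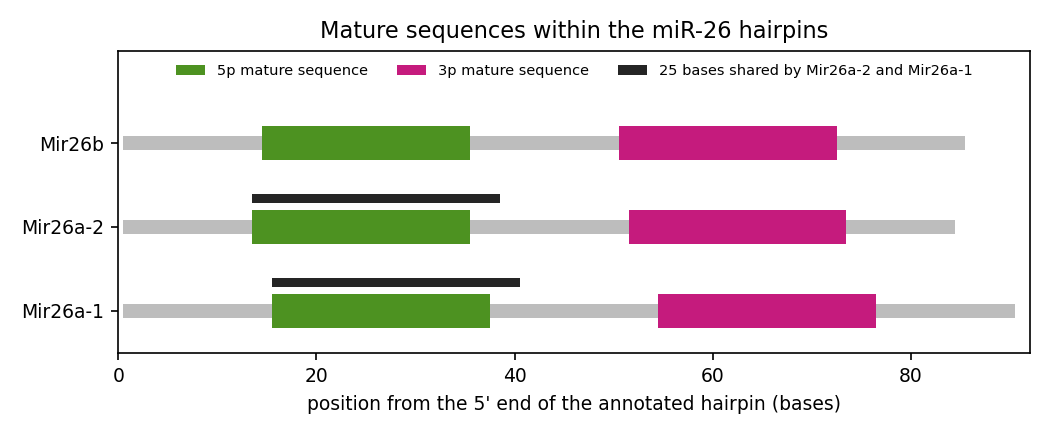
The 3 miR-26 hairpins are drawn to scale, with the position in bases from the 5′ end of each hairpin on the x axis, the mature strands as coloured boxes and the 25 shared bases as black bars. The shared bases of Mir26a-2 and Mir26a-1 span the 5p strand and stop before the 3p strand.

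The host genes are members of 1 phosphatase family, and the hairpins lie at similar places in them. Mir26b is in Ctdsp1 (chr1:74391509-74397285), in intron 4 of 6 of the coding transcript that spans it, and that intron is 564 bases long. Mir26a-2 is in Ctdsp2 (chr10:126978717-126999975), in intron 5 of 7 of the full-length coding transcript, 241 bases before the next exon. A shorter coding transcript of Ctdsp2 is annotated to start at 126995613, the last base of the Mir26a-2 hairpin. Mir26a-1 is in Ctdspl (chr9:118926453-119043998), in intron 5 of 7 of its longer coding transcript and intron 4 of 6 of the other. The fourth gene with this name root, Ctdspl2, holds no microRNA gene. Host transcripts were not measured in these libraries.

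Replicate 2 held 3495401 counts on microRNA genes and replicate 1 held 4815761, and levels are given as counts per 1000000 of these totals (CPM). Reads that fit several places have a total of their own, 4020799 in replicate 2 and 4660508 in replicate 1. No source used here says whether any of them also entered the count of a gene. A count of 0 allowed up to 0.858 CPM in replicate 2 against 0.623 CPM in replicate 1. The counts of the libraries were not identical, and they were kept as 2 samples. All 10 microRNA genes listed as markers of neurons and brain had counts, and their sum was 1.22% of counts in replicate 2 against 1.00% in replicate 1. The 3 Mir124a genes, the best known neuronal microRNAs, held 17 of these counts in replicate 2 and 17 in replicate 1. Of the 10 genes, 6 had a mature sequence also found in another hairpin. No mature sequence was matched in the Mir124a hairpins, and strands common to them were not looked for. Reads of these genes may be missing from their counts, and low counts do not show that a strand was rare. The liver microRNA Mir122 had 31.5 CPM in replicate 2 against 39.5 CPM in replicate 1. The muscle genes Mir1a-1, Mir1a-2, Mir133a-1 and Mir133a-2 had 0 counts in both, while Mir206, also of muscle, had 114 counts in replicate 2 and 493 in replicate 1. Among the muscle genes with 0 counts, a mature sequence was matched in Mir1a-1 alone. Whether reads of these genes fit several places was not analysed, so the 0 counts do not show that their strands were absent.

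Most counts on the miR-26 genes were on Mir26b in both libraries. Together the 3 genes took 0.461% of counts in replicate 2 (16126 counts), against 0.257% in replicate 1 (12377 counts), a mean of 0.359% ± 0.144 (SD, n = 2). The exact 95% Clopper-Pearson intervals were 0.454% to 0.469% in replicate 2 and 0.253% to 0.262% in replicate 1. Such intervals cover counting error only. The family's log2 ratio, replicate 2 over replicate 1 with 0.5 counts added, was 0.84, with an interval of 0.81 to 0.88. The value is relative to library totals, under which the median log2 ratio over the 540 genes whose counts summed to 10 or more was 0.17. That median was 0.09 with TMM sizes and 0.005 with DESeq2 sizes, shifts that apply to every ratio given here. The data are bulk tissue, so fewer cells of a type and less RNA per cell cannot be told apart.

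Mir26b (ENSMUSG00000065468.1), the gene with mature strands of its own on both arms, had 14978 counts in replicate 2 and 12292 in replicate 1. These correspond to 4285 CPM in replicate 2 against 2552 CPM in replicate 1, a mean of 3419 ± 1225 CPM (SD, n = 2). It was higher in replicate 2 by 1.68-fold, a log2 ratio of 0.75, which is inside 2-fold. Among the 540 genes, 347 had a smaller absolute log2 ratio. By mean level Mir26b was number 52 of 2202 genes, of which 797 had at least 1 count in either library. The next gene above it was Mir221, a repressor of the cell cycle inhibitor p27, at 3428 ± 720 CPM, and the next below was Mir30a, at 3310 ± 71.4 CPM (SD, n = 2 for both). The differences from both neighbours are smaller than the spread between the libraries. Mir26b made up 92.9% of miR-26 counts in replicate 2 (interval 92.5% to 93.3%) and 99.3% in replicate 1 (interval 99.2% to 99.5%), a mean of 96.1% ± 4.55 (SD, n = 2). Reads of strands common to several genes may be missing from the counts of those genes. The rank of Mir26b and its share of the family are uncertain for that reason.

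Mir26a-2 (ENSMUSG00000065430.1), a source of miR-26a-5p, was the member that differed most between the libraries. It had 1126 counts in replicate 2 and 58 in replicate 1, or 322 CPM with an interval of 304 to 342 in replicate 2 and 12.0 CPM with an interval of 9.15 to 15.6 in replicate 1. Its level was thus high in replicate 2 and low in replicate 1, and the SD was larger than the mean, at 167 ± 219 CPM (SD, n = 2). The ratio was 26.7-fold, a log2 ratio of 4.73 with a counting interval of 4.36 to 5.15. Each side is 1 library, so this describes these libraries and not a condition. Its mean rank of 191 covers a rank of 161 in replicate 2 and 315 in replicate 1. The neighbours in mean level, Mir377 at 176 ± 42.0 CPM above and Mir299a at 165 ± 79.1 CPM below, lie within its spread (SD, n = 2 for both).

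Mir26a-1 (ENSMUSG00000065513.1), the other source of miR-26a-5p, was low in both libraries. It had 22 counts in replicate 2 and 27 in replicate 1, or 6.29 CPM in replicate 2 against 5.61 CPM in replicate 1, with a mean of 5.95 ± 0.486 CPM (SD, n = 2). The counting intervals, 3.94 to 9.53 CPM in replicate 2 and 3.69 to 8.16 CPM in replicate 1, overlap. The log2 ratio of 0.17 lies in an interval from -0.71 to 1.03, so a difference between the libraries was not detectable at this depth. Mir7026, next above at 5.98 ± 2.87 CPM, and Mir205, next below at 5.74 ± 2.45 CPM, differ from it by less than their spread (SD, n = 2 for both). How many of the reads that fit several places came from miR-26a-5p, and how they were counted, was not analysed here. The levels of Mir26a-2 and Mir26a-1 are therefore uncertain, and the level of miR-26a may be higher than they show.

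**Figure D2:**
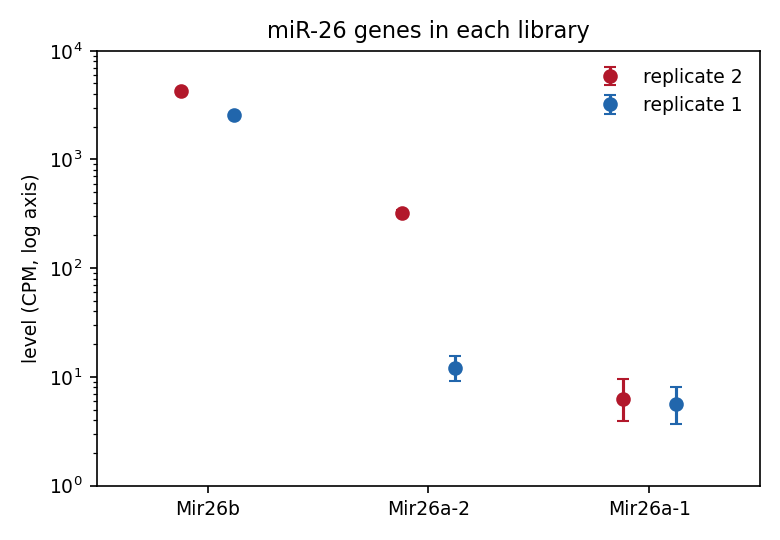
The level of each miR-26 gene in CPM, on a log axis, is shown per library, with replicate 2 in red left of replicate 1 in blue and bars for the exact 95% counting interval. Mir26a-2 had 322 CPM in replicate 2 against 12.0 CPM in replicate 1, while Mir26a-1 stayed near 6 CPM in both.

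The order of the 3 genes by deposited counts was the same in both libraries, with Mir26b highest and Mir26a-1 lowest. Mir26b had 13.3 times the counts of Mir26a-2 in replicate 2 (interval 12.5 to 14.1) and 212 times in replicate 1 (interval 164 to 279). Mir26a-2 had 51.2 times the counts of Mir26a-1 in replicate 2 (interval 33.6 to 82.0) and 2.15 times in replicate 1 (interval 1.34 to 3.53). Over the mean of both libraries, the SD of Mir26a-2 is so wide that it takes in the level of Mir26a-1. Together the Mir26a genes made up 7.12% of miR-26 counts in replicate 2 against 0.687% in replicate 1. These ratios compare the counts as deposited, in which reads of miR-26a-5p may be missing from both Mir26a genes, and equal capture of the strands was not analysed. The files count hairpins, so the share of 5p and 3p reads is not known.

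The counts of the family were on the annotated strand. Antisense counts were 0 for all 3 genes in both libraries. Taken as up to 3 counts, this allows 0.0186% of the family's counts in replicate 2 against 0.0242% in replicate 1. The upper ends of the exact 95% intervals were 0.0229% in replicate 2 and 0.0298% in replicate 1. The unstranded counts of the 3 genes were equal to the counts on the annotated strand. A second microRNA gene, Mir546, lies in Ctdsp2 at chr10:126998440-126998560, in the last exon of its coding transcripts and 2826 bases after Mir26a-2 on the same strand. It had 2 counts in replicate 2 and 1 in replicate 1. Both are below the 3 counts that a count of 0 allows, so Mir546 gives no fold to set beside that of its neighbour. It was picked with its values in view.

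All 3 members were among these 540 genes. Of these 3, Mir26a-2 alone was past 2-fold in either direction, beside 24.1% of all 540 genes. Of the 130 genes past 2-fold, 81 were higher in replicate 2, which is 15.0% of the 540, and 49 were lower, which is 9.07%. Higher genes were thus 62.3% of those past 2-fold when totals set the scale, 54.8% under TMM and 50.0% under DESeq2 size factors. Mir1912, with 25 counts in replicate 2, and Mir1943, with 11, had 0 counts in replicate 1, so their log2 ratios depend on the counts added and are not ranked against that of Mir26a-2. Both were picked with their values in view.

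**Figure D3:**
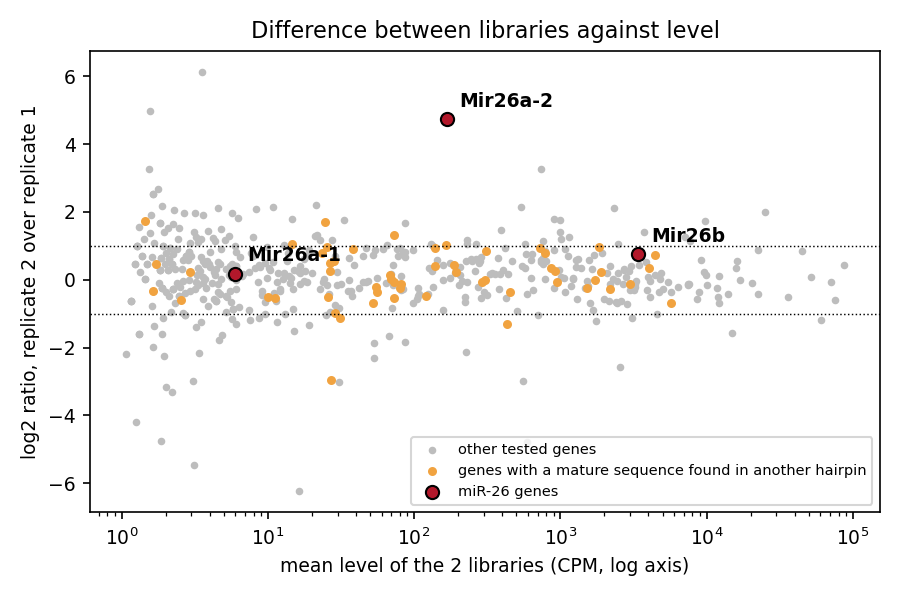
The log2 ratio of replicate 2 over replicate 1 is plotted against the mean CPM (log axis) for 540 genes, with the miR-26 genes in red, genes that have a mature sequence found in another hairpin in orange and dotted lines at 2-fold. Mir26a-2 lies at 4.73, above both lines, while Mir26b and Mir26a-1 lie between them.

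The blood and choroid plexus markers also differed between the libraries. The 7 markers of choroid plexus and ciliated cells held 0.533% of counts in replicate 2 against 0.258% in replicate 1. Of the 6 with at least 10 counts, 4 were at least 2-fold higher in replicate 2, beside 15.0% of the 540 genes. These 4 were Mir204, Mir34b, Mir211 and Mir449c, with log2 ratios of 1.785, 1.76, 2.53 and 1.11. Mir211 had only 10 counts in replicate 2 and 2 in replicate 1, and Mir449c had 16 and 10. Mir449a and Mir34c, with the highest mean levels of the set, were inside 2-fold at 0.80 and 0.92. Mir449b had 0 counts in replicate 1. The 3 red blood cell markers took 0.00764% in replicate 2 against 0.123% in replicate 1, and 2 of 3 were at least 2-fold lower in replicate 2, beside 9.07% of the 540 genes. The lower ones were Mir451a, at -4.78, and Mir144, at -3.025, while Mir486, at -0.15, was inside 2-fold. Mir451a held 145 of the set's 267 counts in replicate 2 and 5505 of 5920 in replicate 1. Oligodendrocyte markers took 0.172% in replicate 2 against 0.0998% in replicate 1, and the endothelial marker Mir126a took 0.930% in replicate 2 against 1.49% in replicate 1. The mural cell markers took 0.439% in replicate 2 against 0.396% in replicate 1, and the myeloid markers 0.0130% in replicate 2 against 0.0123% in replicate 1. Members of these sets differed. Mural Mir145a, at a log2 ratio of 1.18, and myeloid Mir223, at 2.08, were at least 2-fold higher in replicate 2, beside 15.0% of the 540 genes. Mural Mir143, at 0.09, and myeloid Mir142 and Mir155, at -0.33 and 0.10, were inside 2-fold. The part of these cell types in the level of any miR-26 gene was not tested.

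Genes with levels most like each member were found by the summed absolute difference in log2(CPM + 1) over the 2 libraries. For Mir26b they were Mir221 (distance 0.32), Mir323 (0.34) and Mir378a (0.39). For Mir26a-1 they were Mir208a (0.15), Mir190b (0.16) and Mir5617 (0.19). Mir26a-2 had no gene so close. Its nearest were Mir34b, a marker of choroid plexus and ciliated cells here, at a distance of 2.93, Snord43 at 2.97 and Mir29b-1 at 3.11, and their log2 ratios of 1.76, 1.68 and 1.69 were lower than its own. Over 2 libraries this likeness describes levels alone.

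The same situation, a mature strand encoded by more than 1 gene, was found elsewhere in 70 groups of hairpins including the Mir26a pair. Of the 1250 genes that held a mature sequence of the RefSeq table, 348 had a sequence also found in another hairpin. Of these 348, 70 had a count and 56 had at least 10 counts. Of the other 902, 608 had a count and 429 had at least 10. In 952 further genes, among them the Mir124a genes, no mature sequence was matched, and shared strands were not looked for. Among 24 pairs with at least 10 counts for each gene and no 0, the count ratio of the higher to the lower gene changed between the libraries by a median of 0.44 on the log2 scale, and by at least 2-fold in 6 pairs. The Mir26a pair changed by 4.57, and the next largest change was 2.52, for Mir365-2 and Mir365-1, which had 15 counts or fewer in each library. The change of the Mir26a pair follows from the log2 ratio of Mir26a-2, which was known when the genes were chosen. Its place among the pairs is therefore a description only. The 24 pairs are not independent, since some let-7 genes are in more than 1. In each pair, reads of the common strand may be missing from the counts of both genes.

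The 5 groups with a common strand that had the highest summed levels were all above the Mir26a pair in level. Mir138-1 had 2.24 times the counts of Mir138-2 in replicate 2 and 2.97 times in replicate 1. Mir128-1 had 2.28 times those of Mir128-2 in replicate 2 and 2.65 times in replicate 1. For Mir181b-2 over Mir181b-1 the ratio was 89.5 in replicate 2 and 132 in replicate 1. Mirlet7c-2 over Mirlet7c-1 gave 3.06 in replicate 2 and 3.19 in replicate 1, and Mirlet7c-2 over Mirlet7a-1, which share a 3p strand, gave 9.29 in replicate 2 and 10.1 in replicate 1. Reads of the common strand may be missing from the counts of both genes of a group. These ratios therefore compare deposited counts and do not give the relative output of the genes.

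**Figure D4:**
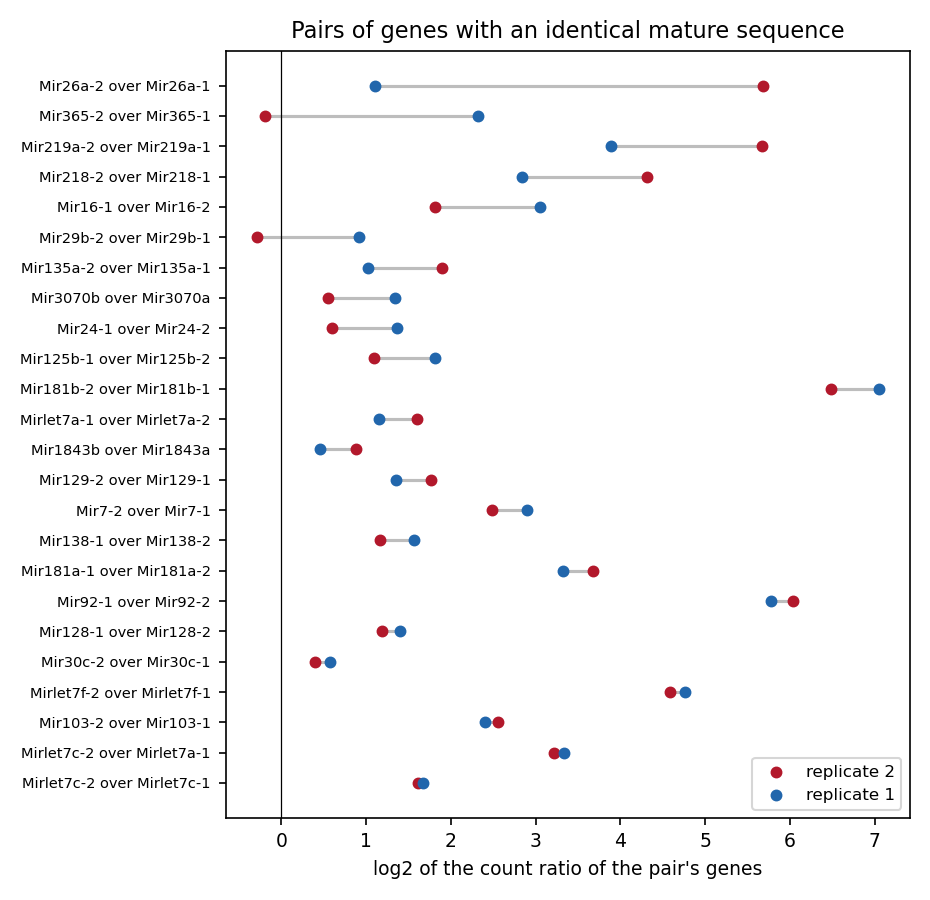
For 24 pairs of genes with an identical mature sequence, the x axis gives the log2 of the count ratio of the gene with the higher mean to its partner, with replicate 2 in red and replicate 1 in blue. The pairs are ordered by the change between libraries, and Mir26a-2 over Mir26a-1, at 5.68 in replicate 2 and 1.10 in replicate 1, is at the top.

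The miR-103 and miR-107 family, chosen after its values were seen, has the same layout of a single gene and a pair with a common strand, in introns of pantothenate kinase genes. Mir107, with no strand found in another hairpin, had 3112 CPM in replicate 2 against 3396 CPM in replicate 1. Mir103-2 had 48.6 CPM in replicate 2 against 62.5 CPM in replicate 1, and Mir103-1 had 8.30 CPM in replicate 2 against 11.8 CPM in replicate 1. Mir107 made up 98.2% of that family's counts in replicate 2 against 97.9% in replicate 1. In both families, reads of the strand common to the pair may be missing from its counts, so the order of the single gene and the pair is uncertain. The log2 ratios of Mir107, Mir103-2 and Mir103-1 were -0.13, -0.36 and -0.50, beside 0.75, 4.73 and 0.17 for Mir26b, Mir26a-2 and Mir26a-1.

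Other microRNAs of the REST and phosphatase circuit were listed beside miR-26 because they repress REST or its cofactors, or are themselves silenced by REST. Of 15 genes, 13 had at least 10 counts, 4 were at least 2-fold higher in replicate 2 and 1 was at least 2-fold lower, against 15.0% and 9.07% of all 540 genes. The median log2 ratio was 0.56, beside 0.17 over the 540 genes. The list was led by Mir139, at 57346 CPM in replicate 2 against 31820 CPM in replicate 1. Next were the activity-induced Mir132, at 9936 CPM in replicate 2 against 4187 CPM in replicate 1, and Mir137, at 4111 CPM in replicate 2 against 5316 CPM in replicate 1. The lowest detected gene was Mir124a-2, with 2 counts in replicate 2 and 0 in replicate 1. Of the 15 genes, 5 had a mature sequence found in another hairpin, and no mature sequence was matched in the Mir124a genes. Reads of theirs may be missing from these counts, so the order within the list is uncertain. The 4 higher genes were Mir132, Mir29a, Mir29b-1 and Mir29c, with log2 ratios of 1.25, 1.40, 1.69 and 1.06, and the lower one was Mir153, at -2.30. Mir29a, Mir29b-1 and Mir29c are of 1 family, so the higher genes are not independent. Mir29a, Mir29b-1, Mir29c and Mir153 were picked with their values in view. With TMM or DESeq2 sizes 3 were higher and 1 was lower.

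A further list held other microRNAs described as repressing Ezh2 or Lin28, the targets best known for miR-26. Lin28 proteins block the maturation of let-7. Of 21 genes, 21 had at least 10 counts, 2 were at least 2-fold higher in replicate 2 and 0 were lower, against 15.0% and 9.07% of all 540 genes. The higher share, 9.52%, rests on 2 genes and is not read as a difference from that of all genes. The median log2 ratio was 0.07, which was -0.01 with TMM sizes and -0.09 with DESeq2 sizes. The highest levels were those of Mirlet7b, Mirlet7i and Mirlet7g, with log2 ratios of 0.43, -0.08 and 0.07, and the lowest was that of Mir9-2 at 2.92 ± 0.316 CPM (SD, n = 2). The higher genes were Mir101a at 1.31 and Mir125a at 1.16, and these and Mir101b were picked with their values in view. Mir101a and Mir101b, which repress Ezh2, had mean levels of 73.0 ± 44.0 CPM and 245 ± 72.5 CPM (SD, n = 2), below that of Mir26b and around that of Mir26a-2. Of the 21 genes, 14 had a mature sequence found in another hairpin, so reads of theirs may be missing from these counts.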

How the data were processed

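The authors deposited raw read counts per microRNA gene, 1 file per library, with 3 columns (unstranded and each strand) and 4 lines of totals. Per the deposited notes the genome was mm10 and the annotation GENCODE M21, and replicates were not pooled. Which aligner and counter were used is not given in the sources used here. No source names the strand columns; the one with the larger total over genes was taken as the annotated strand. All 2202 gene identifiers matched GENCODE M21. The totals entered no library size except in the alternative with all reads as the denominator. All reads were taken as the sum of the totals and the counts on genes. That sum assumes that reads fitting several places were not also counted on genes, which no source used here states. Of all reads by this sum in replicate 2, 39.8% fitted several places, 19.5% were unmapped and 6.09% fell outside genes. In replicate 1 these shares were 37.7%, 17.7% and 5.74%. Reads of CAST/EiJ alleles were not analysed apart.

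CPM was computed per 1000000 counts on genes. Log2 ratios had 0.5 counts added, and background counts used the 540 genes whose counts over both libraries summed to at least 10. Intervals were exact at the 95% level, and a count of 0 was taken to allow up to 3 counts. With 1 group and members chosen with earlier results of these data known, as were the lists, no p-value was computed. Mature sequences were searched in the 2202 hairpins on their own strand.

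Named genes were the members, the 3 nearest in level to each and its neighbours in rank, the 5 most abundant groups with a common mature sequence, the 3 highest and the lowest detected gene of each list, and the cell type markers. Other genes are said to be picked with their values in view. Alternatives covered the denominator (all reads, TMM from edgeR, DESeq2 size factors), the strand column, counts added, filters, the fold, shared sequences and each replicate left out. The ratio steps were tested on simulated data. Tools were Python 3.11.15, SciPy 1.17.1, Biopython 1.88, R 4.3.3, edgeR 4.0.16 and DESeq2 1.42.0.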

Additional observations from a re-analysis of the deposited data

How the results depend on the processing

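Of 51 values recomputed with both libraries, 38 stayed within their spread or interval, or for counts within 1.5 times, and 13 moved. For the level of Mir26a-2 this says little, since its SD is larger than its mean. With all reads as the denominator the family took 0.130% of reads, and its log2 ratio was 0.67. That ratio was 0.76 with TMM sizes and 0.68 with DESeq2 sizes, all below the counting interval of 0.81 to 0.88. The log2 ratio of Mir26a-2 stayed within its interval in the 6 alternatives run. With each replicate left out in turn, which gives the values of the single libraries and no check of stability, the family share ranged from 0.257% to 0.461% and the Mir26b share of miR-26 counts from 92.9% to 99.3%. The number of genes past 2-fold was 315 with at least 1 count over both libraries, 77 with at least 10 counts in each, and 61 past 3-fold. In the Ezh2 and Lin28 list it was 1 with DESeq2 sizes. A family ratio cannot be had from 1 library. Depth limits Mir26a-1, whose 22 counts in replicate 2 and 27 in replicate 1 leave a wide interval, and the reads that fit several places limit both Mir26a genes. No paired analysis was possible because there is 1 group.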

Other observations

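In 2 of the 24 pairs of genes with an identical mature sequence, a different gene was the higher one in each library. Mir29b-1 had 132 counts beside 108 for Mir29b-2 in replicate 2, and 56 beside 106 in replicate 1. Mir365-1 had 8 counts beside 7 for Mir365-2 in replicate 2, and 3 beside 15 in replicate 1. Mir219a-2, an oligodendrocyte microRNA, had 50.9 times the counts of Mir219a-1 in replicate 2 and 14.8 times in replicate 1. Mir218-2 had 19.9 times those of Mir218-1 in replicate 2 and 7.16 times in replicate 1. Mir16-1 had 3.52 times those of Mir16-2 in replicate 2 and 8.31 times in replicate 1. All were picked with their values in view, and no test was run on them.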
